A study of Mus musculus with 20 samples.

Results

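The TNF ligand and receptor superfamilies are the secreted and cell surface signals related to tumour necrosis factor and the cell surface proteins that receive them. They were read here as all protein-coding genes whose symbols begin with Tnfrsf or Tnfsf and a digit in the GENCODE M21 mouse annotation, which gave 31 genes, 20 receptors and 11 ligands, of the 55573 genes counted. Expression was measured by bulk RNA-seq in 20 libraries from mouse bone marrow, 5 in each of 4 groups sorted by flow cytometry from the lineage-negative, Sca-1+, c-Kit+ fraction. Lepr+ HSC and Lepr- HSC libraries came from CD150+ CD48- haematopoietic stem cells (HSCs) with and without leptin receptor on the surface, and Lepr+ MPP and Lepr- MPP libraries from CD150- CD48- multipotent progenitors (MPPs) split in the same way. All mice were C57BL/6 animals of 7 to 9 weeks, no treatment or engineered allele is named for any group, and each library was made from 1000 to 8000 cells pooled from 2 mice, so spread between libraries is spread between pools. Leptin receptor status was set by antibody binding, so the sort selects on protein and not on the Lepr transcript. In bulk libraries, fewer cells of a type and less RNA per cell cannot be told apart.

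Most receptors of this family form trimers at the cell surface that recruit TRAF adaptors and switch on the NF-kB and MAP kinase pathways. A subset carries a death domain and can instead assemble caspase-8 complexes that end in apoptosis, while decoy members bind ligand without passing on a signal. In bone marrow, TNF acting through its receptors is known to restrain or protect stem cells depending on context, the RANK axis controls osteoclasts, and the receptors for BAFF and APRIL keep B lineage cells alive.

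The libraries held 9532993 to 31589794 counts in genes. Lepr itself was read at 0.0759 to 9.36 CPM (counts per 1000000 counts of the library, on TMM-scaled sizes) in Lepr+ HSCs and 0 to 0.165 CPM in Lepr- HSCs, and at 0.261 to 38.8 CPM in Lepr+ MPPs and 0 to 0.767 CPM in Lepr- MPPs. Lepr+ HSC replicate 4 and Lepr+ MPP replicate 1 had the lowest readings of their groups, each inside the range of the matching Lepr- libraries. Slamf1, the gene of CD150, averaged 41.4 and 46.6 CPM in Lepr+ and Lepr- HSCs, and 5.03 and 5.12 CPM in Lepr+ and Lepr- MPPs. Kit was at 405 CPM or more in every library except Lepr- HSC replicate 4, which had 369 CPM. By mean correlation with the other libraries of the group, the ones that stood furthest apart were Lepr+ MPP replicate 4, Lepr+ HSC replicate 5 and Lepr+ MPP replicate 5, with 0.815, 0.837 and 0.858, against 0.872 to 0.936 in the other libraries. A replicate number is the same in all 4 groups and stands for a shared date in the deposited data, so each test below was also fitted with the number as a block.

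Among the 31 members, receptors held most of the transcripts. Receptor transcripts summed to 438.5 to 1142 CPM in a library, and ligand transcripts to 42.6 CPM or more, with 90.5 CPM or less in all libraries but Lepr- HSC replicate 4. Superfamily ligands with other names are outside this sum. Among them the lymphotoxin subunit gene Ltb averaged 78.0 to 268 CPM in the 4 groups. Of the 31 members, 15 had counts in all 20 libraries and 14 in some of them. The ligands Tnfsf15 and Tnfsf18 had 0 counts in all 20 libraries, which allows a level of up to 0.00715 CPM over all 4 groups, for counting error only. The 3 libraries per group of replicates 1 to 3, with 18174638 counts or more, held 21 to 27 members, and the shallower replicates 4 and 5, with 15052009 counts or fewer, held 17 to 22. Summed over the members, the level was 629 to 775 CPM in Lepr+ HSCs and 492 to 648 CPM in Lepr- HSCs, and 712 to 1202 CPM in Lepr+ MPPs and 685 to 911 CPM in Lepr- MPPs. All 5 sums of Lepr- HSCs lay below those of Lepr- MPPs.

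**Figure D1:**
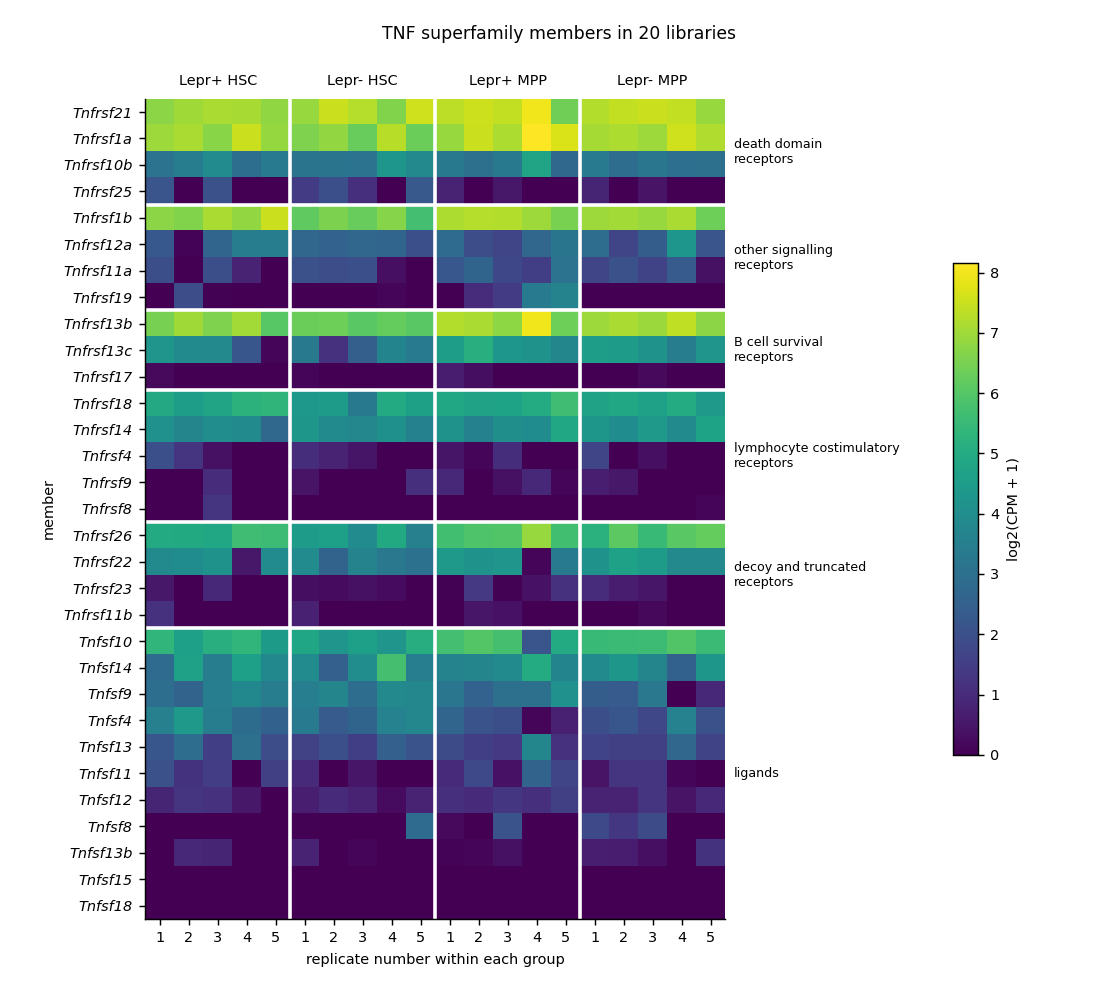
Level of all 31 members in each of the 20 libraries as log2(CPM + 1), with members in rows grouped by role, libraries in columns by group and replicate number, and brighter squares for higher levels. Tnfrsf21, Tnfrsf1a, Tnfrsf1b and Tnfrsf13b are bright in all 20 libraries, while Tnfsf15 and Tnfsf18 are at 0 throughout.

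The family's counts were concentrated in 4 receptors. Tnfrsf21, Tnfrsf1a, Tnfrsf1b and Tnfrsf13b averaged 149.8, 142, 114 and 113 CPM over the 20 libraries and together held 65.0 to 78.7% of the members' counts in a library. Levels between genes were compared per kb of exon. On that scale Tnfrsf1a led with 54.9 CPM per kb as a mean over the 20 libraries, followed by Tnfrsf13b with 39.9, Tnfrsf21 with 36.5, Tnfrsf1b with 29.9, Tnfrsf18 with 18.0 and Tnfrsf26 with 14.3 CPM per kb. Tnfrsf1a was the highest member per kb in each of the 4 groups. Tnfrsf13b and Tnfrsf21 are neighbours whose order differed between groups: 35.8 and 29.97 CPM per kb in Lepr+ HSCs, and 25.95 and 35.97 CPM per kb in Lepr- HSCs. The highest ligands per kb were Tnfsf14 with 8.77 and Tnfsf10 with 6.88 CPM per kb.

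**Figure D2:**
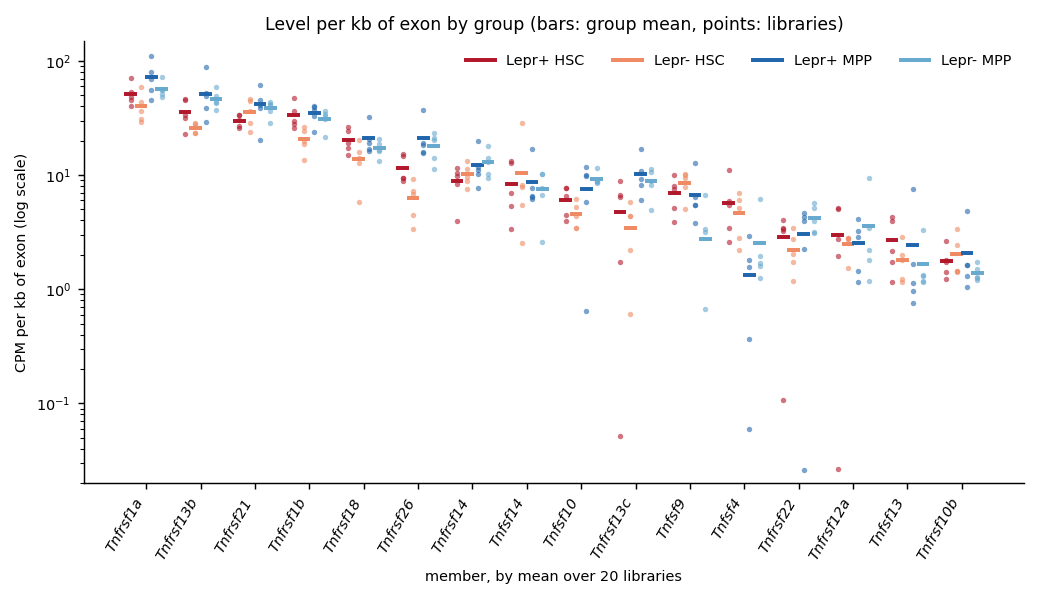
Level in CPM per kb of exon, on a log axis, of the 16 members with a mean of at least 1 CPM per kb, ordered by their mean over 20 libraries; points are libraries and bars are group means, with Lepr- MPP replicate 4 of Tnfsf9 at 0 and so not drawn. Tnfrsf1a has the highest mean in each group, and single libraries of Tnfsf10, Tnfrsf13c, Tnfsf4, Tnfrsf22 and Tnfrsf12a fall far below their group.

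Few members passed the test between the sorted groups, and a member that did not pass is not shown to be equal between them. An edgeR quasi-likelihood test with Benjamini-Hochberg adjustment over 16509 genes read 26 of the 31 members, and the other 5 (Tnfrsf8, Tnfrsf11b, Tnfrsf17, Tnfsf15 and Tnfsf18) had too few counts. Between Lepr+ and Lepr- HSCs, 0 of the 26 members passed an adjusted p of 0.05, where 0.103% of all genes did, and 4 had an unadjusted p under 0.05, which 6.96% of all genes had. With the replicate block the count was again 0, against 1.02% of all genes. Between Lepr+ and Lepr- MPPs, 0 members passed, against 0.2% of all genes (0.103% with the block), and 1 had an unadjusted p under 0.05, against 4.41%. Between Lepr- HSCs and Lepr- MPPs, 1 member, Tnfrsf26, passed and was lower in HSCs, where 2.73% of all genes passed and 1.51% passed lower, so the members' share was near that of all genes. An unadjusted p under 0.05 was found for 6 of the 26 members there, against 12.3% of all genes. With the block 3 members passed, Tnfrsf26, Tnfrsf13b and Tnfrsf1a, all lower in Lepr- HSCs, where 7.5% of all genes passed and 3.43% passed lower. Without the 3 libraries that stood furthest apart the counts were 3 of 27 tested members without the block (Tnfrsf26, Tnfrsf13b and Tnfsf10), where 4.28% of all genes passed, and 5 with it (also Tnfrsf1a and Tnfrsf1b), where 11% did. Between Lepr+ HSCs and Lepr+ MPPs, 0 members passed, against 0.466% of all genes (1.77% with the block), and 4 had an unadjusted p under 0.05, against 7.89%. The difference between the Lepr effect in HSCs and that in MPPs passed for 0 members and 0% of all genes, with and without the block, and 0 members had an unadjusted p under 0.05, against 3.2% of genes. DESeq2 called 0, 1, 2, 0 and 0 members in these 5 comparisons, where it called 1.1%, 1.29%, 5.11%, 2.08% and 0.115% of all genes.

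The members' median fold change was set beside that of all genes, which is a description and not a test. The median of all genes lay close to 0 in each comparison. A median of 26 genes can lie further off without a shift of the family, so no shift is read from these values. The median log2 fold change of the 26 tested members was 0.36 for Lepr+ against Lepr- HSCs, where that of all genes was -0.004, and 0.22 for Lepr+ against Lepr- MPPs, where it was 0.011. For Lepr- HSCs against Lepr- MPPs it was -0.36, beside 0.006 for all genes, and for Lepr+ HSCs against Lepr+ MPPs it was -0.40, beside -0.02. For the difference of Lepr effects the medians were 0.019 for the members and -0.02 for all genes. These comparisons share libraries, and the medians describe the members that had enough counts to be tested.

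**Figure D3:**
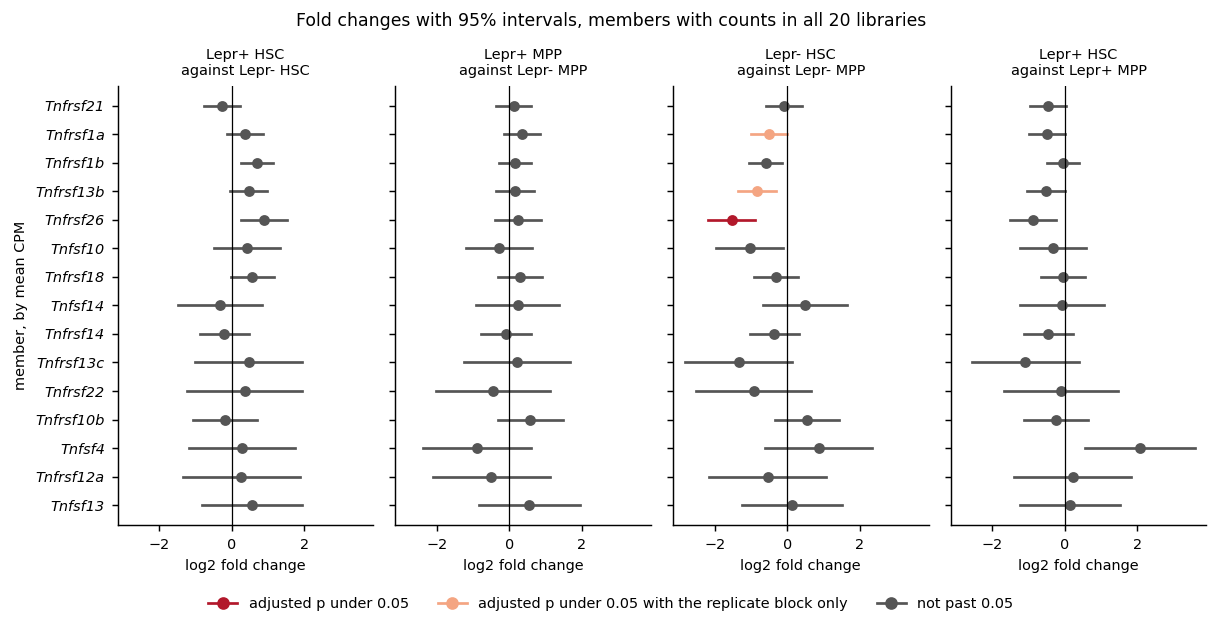
Log2 fold change (points) with its 95% interval (horizontal lines) for the 15 members with counts in all 20 libraries, in 4 comparisons, from the edgeR fit without the block; colour marks adjusted p. Tnfrsf26 at -1.54 in Lepr- HSCs against Lepr- MPPs is the member past the threshold without the block, and Tnfrsf13b and Tnfrsf1a pass with it.

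Among the truncated and decoy receptors, Tnfrsf26 was lower in Lepr- HSCs than in Lepr- MPPs, with the smallest p of any member in any comparison. It is a mouse receptor gene without a death domain that lies next to the mouse TRAIL decoy receptors Tnfrsf22 and Tnfrsf23 on the minus strand of chromosome 7 (chr7:143607659-143628722, GRCm38). In the order of replicates 1 to 5, Tnfrsf26 had 30.6, 30.4, 28.6, 49.3 and 47.1 CPM in Lepr+ HSCs, against 21.9, 23.2, 14.4, 29.9 and 10.9 CPM in Lepr- HSCs. It had 51.1, 59.5, 60.9, 119 and 50.4 CPM in Lepr+ MPPs, against 36.5, 68.6, 45.4, 65.7 and 74.9 CPM in Lepr- MPPs. All 5 Lepr- HSC libraries lay below all 5 Lepr- MPP libraries, and all 5 Lepr+ HSC libraries lay below all 5 Lepr+ MPP libraries. Among the tested members, 3 (Tnfrsf26, Tnfrsf13b and Tnfsf10) were separated in this direction between Lepr- HSCs and Lepr- MPPs, where 3.43% of all genes were, and 1 between Lepr+ HSCs and Lepr+ MPPs, where 1.02% were. The level averaged 20.1 ± 7.51 CPM in Lepr- HSCs and 58.2 ± 16.4 CPM in Lepr- MPPs (SD, n = 5 each), a log2 fold change of -1.54 ± 0.31 (SE) with an edgeR adjusted p of 0.0076 and of 0.00118 with the block, lower in 5 of 5 replicate numbers. Without replicate 2, 3 or 5 of all groups the adjusted p was 0.0806, 0.0686 and 0.0552, in the libraries dated June alone it was 0.0645 and in the 2 libraries per group dated July 0.855, with log2 fold changes of -1.53, -1.53, -1.29, -1.75 and -1.38. Between Lepr+ HSCs and Lepr+ MPPs the log2 fold change was -0.87 ± 0.31 (SE; edgeR adjusted p = 0.322, and 0.119 with the block), in the same direction in 5 of 5 replicate numbers. Between Lepr+ and Lepr- HSCs it was 0.89 ± 0.31 (SE; edgeR adjusted p = 0.415, and 0.126 with the block), positive in 5 of 5 replicate numbers, and the lowest Lepr+ HSC value, 28.6 CPM, lay just under the highest Lepr- HSC value, 29.9 CPM. Of the marker lists, 4 had sums that did not overlap between Lepr- HSCs and Lepr- MPPs. The 12 haematopoietic stem and progenitor markers summed to 1594 to 2259 CPM in Lepr- HSCs and 3478 to 4446 CPM in Lepr- MPPs. The largest gaps were in Cd34, with means of 192 and 1146 CPM, and Flt3, with 19.9 and 474 CPM. Slamf1, Gfi1b and Meis1 lay the other way, with 46.6 and 5.12, 281 and 142, and 474 and 416.5 CPM. In the edgeR test 2 of the 12 were higher and 6 lower in Lepr- HSCs, where 2.73% of all genes passed and 1.51% passed lower. Slamf1 encodes CD150, by which HSCs and MPPs were sorted apart, so the list is not independent of the sort. The 12 B and plasma cell markers, described with Tnfrsf13b, were also lower in sum in Lepr- HSCs. The others were the 7 dendritic cell markers, which summed to 89.4 to 154.5 CPM in Lepr- HSCs and 373 to 690.3 CPM in Lepr- MPPs, and the 9 megakaryocyte and platelet markers, which summed to 2750.0 to 5746 CPM in Lepr- HSCs and 602 to 1005 CPM in Lepr- MPPs. The dendritic sums were mostly Flt3, also a progenitor gene, and Bst2, while Siglech had 0 counts in all 5 Lepr- HSC libraries and averaged 0.209 CPM in Lepr- MPPs. Clec9a of the same list lay the other way, with 1.23 CPM in Lepr- HSCs and 0.0227 CPM in Lepr- MPPs. Their part in the Tnfrsf26 result was not tested.

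The related Tnfrsf22 and Tnfrsf23 were lower in level, and their reads can be told apart from those of Tnfrsf26 but less well from each other. Tnfrsf22 lay between 0.11 and 24.2 CPM over the 20 libraries, with medians of 14.3 and 8.57 CPM in Lepr+ and Lepr- HSCs and 16.8 CPM in both MPP groups. Tnfrsf23 had 0 counts in 6 of the 20 libraries and at most 1.54 CPM. Stretches of 50 bases shared with another gene made up 27.4% of the Tnfrsf22 and 19.3% of the Tnfrsf23 transcript sequence, including stretches that each shares with the other, so their counts are uncertain. In Tnfrsf26 such stretches made up 1.89%, all shared with the overlapping gene E230032D23Rik, which averaged 4.30 and 3.96 CPM in Lepr+ and Lepr- HSCs and 6.87 and 6.86 CPM in Lepr+ and Lepr- MPPs. The libraries carry no strand, so reads in that overlap cannot be assigned. Over all aligned coding bases of the GENCODE M21 transcripts the identity was 54.1% for Tnfrsf26 and Tnfrsf22, 52.6% for Tnfrsf26 and Tnfrsf23 and 89.8% for Tnfrsf22 and Tnfrsf23, and the longest run that Tnfrsf26 shares with either is 10 bases. Tnfrsf11b, the soluble decoy for the ligand of RANK, had counts in 5 of 20 libraries, 76 in all.

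Of the B cell survival receptors, Tnfrsf13b was among the most abundant members in these stem and progenitor cells. It encodes TACI, a receptor for BAFF and APRIL known from B cells and plasma cells. Tnfrsf13b had 89.5, 128, 95.2, 130.3 and 64.5 CPM in Lepr+ HSCs, against 79.5, 81.1, 65.7, 74.8 and 66.8 CPM in Lepr- HSCs. It had 148, 139, 109, 251 and 81.9 CPM in Lepr+ MPPs, against 125, 139, 121, 167 and 106 CPM in Lepr- MPPs. The 5 Lepr- HSC libraries lay in a narrow band below all 5 Lepr- MPP libraries, while the Lepr+ HSC and Lepr+ MPP groups overlapped, with Lepr+ MPP replicate 4 far above the rest. The level averaged 73.6 ± 7.08 CPM in Lepr- HSCs and 131 ± 23.2 CPM in Lepr- MPPs (SD, n = 5 each), a log2 fold change of -0.84 ± 0.25 (SE) with an edgeR adjusted p of 0.086, and of 0.00485 with the replicate block. It was lower in 5 of 5 replicate numbers. With the block and without replicate 3 of all groups the adjusted p was 0.0503. Without Lepr+ MPP replicate 4, a library outside this comparison that enters the shared estimate of spread, the adjusted p was 0.0246. Between Lepr+ and Lepr- HSCs the log2 fold change was 0.46 ± 0.25 (SE; edgeR adjusted p = 0.806, and 0.297 with the block), positive in 4 of 5 replicate numbers.

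Markers of B lineage cells were read beside it. The 12 B and plasma cell markers summed to 50.9 to 117 CPM in Lepr- HSCs and 154 to 316 CPM in Lepr- MPPs. Of the 8 tested, 1 passed lower in Lepr- HSCs, where 1.51% of all genes did. The largest gaps between Lepr- HSCs and Lepr- MPPs were in Ighm, with means of 3.83 and 119 CPM, and Sdc1, with 7.00 and 40.3 CPM. Cd79b, with 65.8 and 67.1 CPM, and Igkc, with 0.261 and 0.355 CPM, lay close together in these groups. The sums were 56.8 to 664 CPM in Lepr+ HSCs and 108 to 4533 CPM in Lepr+ MPPs. Pax5 had 0 counts in all 10 MPP libraries. Immunoglobulin transcripts made up most of the large sums, with Igkc at a mean of 865 CPM and Ighm at 483 CPM in Lepr+ MPPs. Their part in the Tnfrsf13b result was not tested. Tnfrsf13c, the dedicated BAFF receptor, had 18.04, 13.7, 13.2, 3.57 and 0.105 CPM in Lepr+ HSCs, against 8.92, 1.24, 4.49, 11.8 and 8.98 CPM in Lepr- HSCs. It had 22.3, 34.4, 18.7, 16.8 and 12.4 CPM in Lepr+ MPPs, against 22.97, 21.8, 16.9, 10.04 and 18.2 CPM in Lepr- MPPs. The HSC and MPP groups overlapped, and 1 count in Lepr+ HSC replicate 5 was the lowest reading. Tnfrsf17, the third receptor of this set and a plasma cell receptor, had 35 counts in all, in 5 of 20 libraries.

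The death domain receptors were led by Tnfrsf1a, the main receptor for soluble TNF. Tnfrsf1a had 125, 137, 105, 182 and 117 CPM in Lepr+ HSCs, against 94.3, 113, 76.03, 154 and 79.9 CPM in Lepr- HSCs. It had 119, 179, 143, 285 and 206 CPM in Lepr+ MPPs, against 132, 143, 124, 188 and 144 CPM in Lepr- MPPs. Replicate 4 was the highest of each group, and the ranges of all groups overlapped. The level averaged 103 ± 31.7 CPM in Lepr- HSCs and 146 ± 24.8 CPM in Lepr- MPPs (SD, n = 5 each), a log2 fold change of -0.50 ± 0.24 (SE) with an edgeR adjusted p of 0.399, and of 0.0158 with the replicate block. It was lower in Lepr- HSCs in 5 of 5 replicate numbers. With the block and without replicate 2 or 3 of all groups the adjusted p was 0.0535 and 0.115. Lepr+ against Lepr- HSCs gave a log2 fold change of 0.37 ± 0.24 (SE; edgeR adjusted p = 0.943, and 0.206 with the block), positive in 5 of 5 replicate numbers, and Lepr+ HSCs against Lepr+ MPPs gave -0.48 ± 0.24 (SE; edgeR adjusted p = 0.656, and 0.0851 with the block).

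Tnfrsf21, which encodes the death domain receptor DR6 studied mainly in neurons and lymphocytes, had the highest mean CPM of the family and no difference past the threshold. Tnfrsf21 had 106, 126, 138, 137 and 110.2 CPM in Lepr+ HSCs, against 119, 182, 151, 96.98 and 191 CPM in Lepr- HSCs. It had 160.2, 187, 169, 254 and 83.7 CPM in Lepr+ MPPs, against 149.6, 169.9, 179.9, 171 and 118 CPM in Lepr- MPPs. All groups overlapped, and Lepr+ MPP replicates 4 and 5 held the highest and the lowest reading of the 20 libraries. Tnfrsf10b, the mouse death receptor for TRAIL, lay between 5.74 and 26.2 CPM in all 20 libraries. Tnfrsf25, a T cell death domain receptor, had 0 counts in 10 libraries and at most 3.87 CPM.

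Among the signalling receptors without a death domain, Tnfrsf1b, the second TNF receptor and a TRAF-binding one, was the member with the smallest p between Lepr+ and Lepr- HSCs without the block, and Tnfrsf26 was with it. Tnfrsf1b had 107, 97.9, 139, 113 and 182 CPM in Lepr+ HSCs, against 71.5, 93.01, 76.1, 101 and 51.3 CPM in Lepr- HSCs. It had 142, 153, 149.7, 125 and 91.3 CPM in Lepr+ MPPs, against 125, 130.4, 119, 139 and 81.4 CPM in Lepr- MPPs. Lepr+ HSC replicate 5 was the highest and Lepr- HSC replicate 5 the lowest of the 20 libraries, and 1 Lepr- HSC library, replicate 4, lay above the lowest Lepr+ HSC library. The level averaged 127.7 ± 33.99 CPM in Lepr+ HSCs and 78.6 ± 19.5 CPM in Lepr- HSCs (SD, n = 5 each), a log2 fold change of 0.70 ± 0.22 (SE) that was positive in 5 of 5 replicate numbers and did not pass, with an edgeR adjusted p of 0.311, and of 0.140 with the block. Lepr- HSCs against Lepr- MPPs gave -0.60 ± 0.22 (SE; edgeR adjusted p = 0.201, and 0.107 with the block). The difference of the Lepr effects in HSCs and MPPs was 0.55 on the log2 scale, with an edgeR adjusted p of 1.

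**Figure D4:**
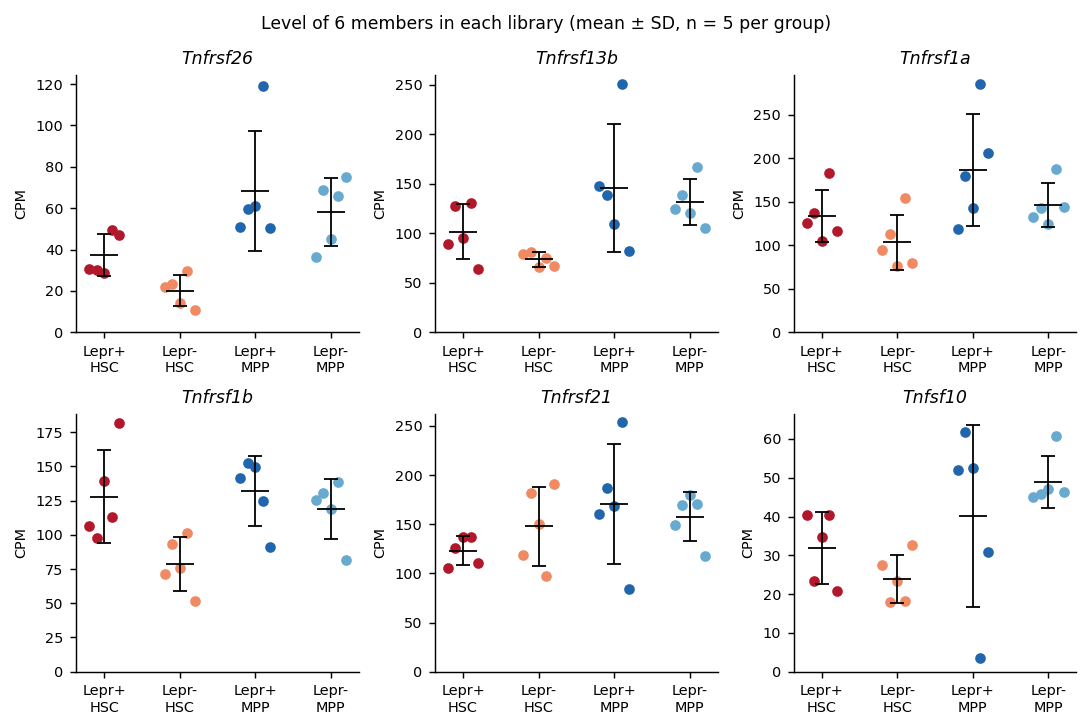
CPM of 6 members in every library (points, replicates 1 to 5 from left to right within a group) with the group mean and SD (bars, n = 5). Lepr- HSCs sit lowest for Tnfrsf26 and in a narrow band for Tnfrsf13b, and Lepr+ MPP replicate 4 stands apart in Tnfrsf26, Tnfrsf13b, Tnfrsf1a and Tnfsf10.

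Tnfrsf19 was read almost wholly in leptin receptor-positive libraries. It encodes TROY, a receptor known from skin, brain and mesenchymal progenitors. Lepr+ MPP replicates 1 to 5 had 0, 1.05, 1.71, 9.56 and 11.5 CPM, against 0 counts in all 5 Lepr- MPP libraries. The pooled 272 counts of the Lepr+ MPPs gave a level 95.1-fold that of the limit of 3 counts over the 5 Lepr- MPP libraries. That ratio leaves out the spread between libraries. The edgeR log2 fold change, which includes it, was 9.64 with a 95% interval of 4.33 to 14.9. The difference did not pass the edgeR test (adjusted p = 0.191, and 0.205 with the block), and over the other settings tried the adjusted p ran between 0.0129, with DESeq2, and 1. In HSCs the gene had 0, 2.83, 0.0290, 0 and 0 CPM in Lepr+ libraries, against 0, 0, 0, 0.0857 and 0 CPM in Lepr- libraries. Of the 56 counts of Lepr+ HSCs all but 1 were in replicate 2, and without that library the sign of the fold change turned.

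Stromal markers moved with Tnfrsf19 in MPPs. The 16 stromal markers, all of which passed the filter on low counts, summed to 209.8, 1119, 901, 1330 and 4325 CPM in Lepr+ MPP replicates 1 to 5 and to 57.3 to 101 CPM in Lepr- MPPs, and 7 of them were higher in Lepr+ MPPs in the edgeR test, or 3 with the replicate block. Replicate 1, with the lowest sum, was the Lepr+ MPP library with 0 Tnfrsf19 counts. Cxcl12 averaged 331 CPM in Lepr+ MPPs and 1.15 CPM in Lepr- MPPs, and Adipoq, Pdgfra, Lum and Ebf3 had 0 counts in all 5 Lepr- MPP libraries. Other genes of the list were present in both groups. Pdgfrb averaged 40.7 CPM in Lepr+ MPPs and 41.6 CPM in Lepr- MPPs, and Col1a2 averaged 235 and 13.5 CPM. In HSCs the sums were 46.2 to 297 CPM in Lepr+ and 23.8 to 293 CPM in Lepr- libraries. The highest of them stood beside 0.0290 CPM of Tnfrsf19 in Lepr+ HSC replicate 3 and 0 counts in Lepr- HSC replicate 3, while Lepr+ HSC replicate 2, with 2.83 CPM of Tnfrsf19, had a stromal sum of 139.5 CPM. Endothelial markers were higher in Lepr+ MPPs as well. The 12 endothelial markers, all tested, summed to 332, 779, 494, 875 and 916 CPM in Lepr+ MPP replicates 1 to 5 and to 252.5 to 302 CPM in Lepr- MPPs, and 5 of them were higher in Lepr+ MPPs in the edgeR test, or 2 with the replicate block. Cdh5, the endothelial cadherin, averaged 13.8 CPM in Lepr+ MPPs and 0.0152 CPM in Lepr- MPPs, where 4 of 5 libraries had 0 counts. Tie1 averaged 176 and 144 CPM and Egfl7 98.6 and 87.7 CPM in Lepr+ and Lepr- MPPs. Those genes made up most of the mean endothelial sum of Lepr- MPPs. Of all genes, 0.2% passed between Lepr+ and Lepr- MPPs in either direction, and 0.103% with the block. Without the block, 0 genes of any kind passed there when replicate 2 or 3 of all groups was left out. The same held without the 3 libraries that stood furthest apart, and in the libraries dated June or July alone. The stromal and endothelial calls were therefore lost in those settings. In HSCs the endothelial sums were 385 to 498 CPM in Lepr+ and 293 to 370 CPM in Lepr- libraries. The part of stromal or endothelial RNA in the Tnfrsf19 readings was not tested.

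**Figure D5:**
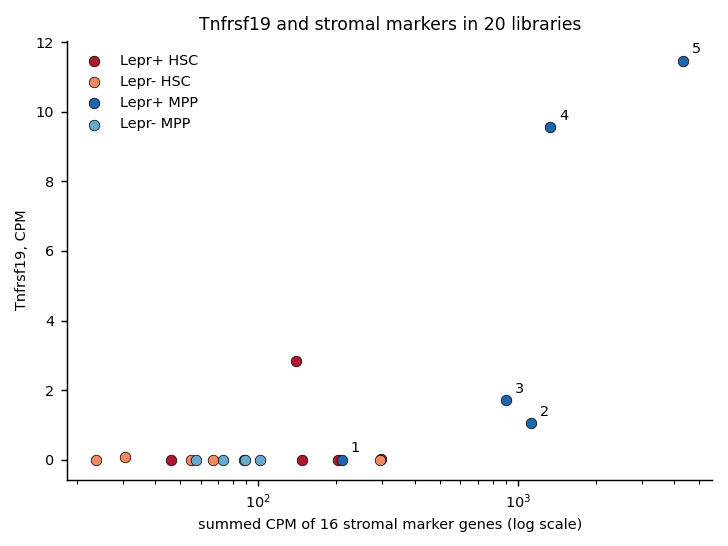
Tnfrsf19 in CPM against the summed CPM of 16 stromal marker genes (log axis) in each of the 20 libraries, coloured by group, with the replicate number beside Lepr+ MPP points. Lepr+ MPP replicates 4 and 5 have 9.56 and 11.5 CPM of Tnfrsf19 and the highest stromal sums, 1330 and 4325 CPM, and the libraries with stromal sums of 101 CPM or less have 0.0857 CPM of Tnfrsf19 or less, while the 2 HSC points with the highest stromal sums, 297 and 293 CPM, have 0.0290 CPM and 0 of Tnfrsf19.

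The other receptors of this set were low. Tnfrsf11a, which encodes RANK, the receptor of the osteoclast signal Tnfsf11, had counts in 17 of 20 libraries and at most 7.65 CPM. Its ligand Tnfsf11 had counts in 15 libraries and averaged 1.60 ± 1.10 CPM in Lepr+ HSCs and 0.27 ± 0.416 CPM in Lepr- HSCs, and 2.22 ± 1.82 CPM in Lepr+ MPPs and 0.646 ± 0.708 CPM in Lepr- MPPs (SD, n = 5 each), with no comparison past the threshold. Tnfrsf12a, the receptor of Tnfsf12, lay between 0.0514 and 18.3 CPM.

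The receptors that costimulate lymphocytes split into a pair that was present in all 20 libraries and 3 that were close to 0. Tnfrsf18 encodes GITR, a receptor of regulatory T cells. Tnfrsf18 had 29.3, 22.7, 26.4, 37.03 and 39.7 CPM in Lepr+ HSCs, against 19.3, 21.7, 8.84, 30.7 and 24.1 CPM in Lepr- HSCs. It had 28.8, 24.9, 25.6, 31.5 and 49.04 CPM in Lepr+ MPPs, against 25.2, 28.3, 24.6, 31.7 and 20.4 CPM in Lepr- MPPs. The groups overlapped, although in each of the 5 replicate numbers the Lepr+ HSC value was the higher of the HSC pair. The log2 fold change for Lepr+ against Lepr- HSCs was 0.57 ± 0.29 (SE; edgeR adjusted p = 0.772, and 0.335 with the block). Its exons share 27.2% of their bases with Gm16008, which had 45 to 60 counts per group, and without strand its counts are uncertain to that extent.

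Tnfrsf14 encodes HVEM, the receptor of the ligand Tnfsf14. Tnfrsf14 had 16.4, 12.02, 15.03, 14.04 and 5.68 CPM in Lepr+ HSCs, against 19.1, 13.7, 12.9, 16.2 and 10.96 CPM in Lepr- HSCs. It had 17.0, 11.1, 15.9, 14.8 and 28.6 CPM in Lepr+ MPPs, against 18.8, 14.6, 20.4, 13.7 and 25.7 CPM in Lepr- MPPs. The groups overlapped, with the lowest reading in Lepr+ HSC replicate 5 and the highest in Lepr+ MPP replicate 5. Tnfrsf4 had at most 2.97 CPM and Tnfrsf9 at most 1.15 CPM, with counts in 11 and 9 libraries. Tnfrsf8 had 48 counts in Lepr+ HSC replicate 3, 1 count in the Lepr- MPPs and 0 counts in all other libraries. The 12 T and NK cell markers, mostly Nkg7, summed to 70.8 to 156 CPM in Lepr+ HSCs and 116 to 243 CPM in Lepr- HSCs, and to 98.1 to 158 CPM in Lepr+ MPPs and 153 to 263 CPM in Lepr- MPPs. Lck, a kinase of T cells, had counts in all 20 libraries and averaged 8.49 to 44.0 CPM in the 4 groups, Cd4 averaged 1.77 to 5.98 CPM, and Trbc2 averaged 1.92 CPM in Lepr- MPPs. The other T cell receptor complex genes Cd3e, Cd3d, Cd3g and Trac averaged 0.332 CPM or less in every group, and Cd8a had 0 counts in all 20 libraries.

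Of the 11 ligands, Tnfsf10, which encodes TRAIL, the ligand of the death receptor Tnfrsf10b, had the highest CPM. Tnfsf10 had 40.5, 23.5, 34.8, 40.3 and 20.8 CPM in Lepr+ HSCs, against 27.4, 17.9, 23.3, 18.2 and 32.7 CPM in Lepr- HSCs. It had 51.9, 61.8, 52.4, 3.41 and 30.8 CPM in Lepr+ MPPs, against 44.9, 45.8, 47.02, 60.8 and 46.3 CPM in Lepr- MPPs. All 5 Lepr- HSC libraries lay below all 5 Lepr- MPP libraries, which held a narrow band in replicates 1, 2, 3 and 5, while Lepr+ MPP replicate 4 had the lowest reading of all. The level averaged 23.9 ± 6.30 CPM in Lepr- HSCs and 49.0 ± 6.67 CPM in Lepr- MPPs (SD, n = 5 each), a log2 fold change of -1.03 ± 0.45 (SE; edgeR adjusted p = 0.324, and 0.225 with the block), lower in 5 of 5 replicate numbers. Without Lepr+ MPP replicate 4, which enters that test through the shared estimate of spread, the adjusted p was 0.0218, and with only the Lepr- HSC and Lepr- MPP libraries fitted it was 0.0236.

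Tnfsf14, which encodes LIGHT, a ligand of Tnfrsf14 and of the lymphotoxin beta receptor, was read in every library. Tnfsf14 had 6.25, 24.5, 9.89, 23.5 and 12.9 CPM in Lepr+ HSCs, against 14.45, 4.72, 15.1, 52.5 and 10.1 CPM in Lepr- HSCs. It had 11.4, 12.1, 14.1, 31.3 and 11.9 CPM in Lepr+ MPPs, against 14.2, 18.8, 12.2, 4.81 and 19.1 CPM in Lepr- MPPs. The highest readings were replicate 4 of Lepr- HSCs and of Lepr+ MPPs, and all groups overlapped.

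Of the ligands of costimulatory receptors, Tnfsf4 and Tnfsf9 were read in 20 and 19 libraries, while Tnfsf18, the ligand of Tnfrsf18, had 0 counts. Tnfsf4, the ligand of Tnfrsf4, had 10.9, 20.2, 9.98, 6.37 and 4.73 CPM in Lepr+ HSCs, against 9.46, 4.07, 5.16, 11.2 and 12.9 CPM in Lepr- HSCs. It had 5.35, 3.30, 2.86, 0.1099 and 0.675 CPM in Lepr+ MPPs, against 2.91, 3.56, 2.33, 11.4 and 3.10 CPM in Lepr- MPPs. The lowest Lepr+ HSC reading, 4.73 CPM, lay under the highest Lepr+ MPP reading, 5.35 CPM, while within each replicate number the HSC value was the higher. Lepr+ HSCs averaged 10.4 ± 6.01 CPM and Lepr+ MPPs 2.46 ± 2.12 CPM (SD, n = 5 each), a log2 fold change of 2.07 ± 0.73 (SE; edgeR adjusted p = 0.326, and 0.241 with the block). Tnfsf9, the ligand of Tnfrsf9, had 6.65, 5.04, 10.4, 12.9 and 9.67 CPM in Lepr+ HSCs, against 10.2, 12.03, 6.56, 13.2 and 12.9 CPM in Lepr- HSCs. It had 8.22, 4.95, 7.05, 7.03 and 16.3 CPM in Lepr+ MPPs, against 4.31, 4.06, 8.56, 0 and 0.866 CPM in Lepr- MPPs. The Lepr- MPPs included the 2 lowest readings, in replicates 4 and 5. Lepr- HSCs against Lepr- MPPs gave a log2 fold change of 1.61 ± 0.76 (SE; edgeR adjusted p = 0.39, and 0.282 with the block). Its exons share 14.9% of their bases with Gm11110, so its counts are uncertain. Gm11110 averaged 5.01 CPM in Lepr- HSCs and 4.26 CPM in Lepr- MPPs, where Tnfsf9 averaged 10.97 and 3.56 CPM.

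Tnfsf8, the ligand of Tnfrsf8, was found in few libraries. It had 0 counts in all 5 Lepr+ HSC libraries, against 0.0338, 0, 0, 0 and 6.18 CPM in Lepr- HSCs. It had 0.163, 0, 3.29, 0 and 0 CPM in Lepr+ MPPs, against 2.50, 1.52, 2.74, 0 and 0 CPM in Lepr- MPPs. The 76 counts of the Lepr- HSCs made the level in Lepr+ HSCs at least 26.5-fold lower, but all but 1 of those counts were in replicate 5 of Lepr- HSCs, and the difference did not pass (edgeR adjusted p = 0.521, and 0.575 with the block). Lepr+ HSCs against Lepr+ MPPs gave a level at least 35.1-fold lower, from 0 and 111 counts (edgeR adjusted p = 0.518), but 106 of the 111 were in Lepr+ MPP replicate 3, which leaves 5 without that library.

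The ligands of the B cell survival receptors were scarce where Tnfrsf13b was abundant. Tnfsf13b, which encodes BAFF, had 0, 0.925, 0.783, 0 and 0 CPM in Lepr+ HSCs, against 0.743, 0, 0.0737, 0 and 0 CPM in Lepr- HSCs. It had 0.0652, 0.0750, 0.280, 0 and 0 CPM in Lepr+ MPPs, against 0.605, 0.531, 0.252, 0 and 1.30 CPM in Lepr- MPPs. Readings of 0 and of up to 1.30 CPM occurred side by side within the Lepr- MPP group. Tnfsf13, which encodes APRIL, lay between 1.24 and 12.4 CPM, and Tnfsf12, which encodes TWEAK, between 0 and 1.91 CPM. Their exons share 60.1% and 48.3% of their bases with the read-through gene Tnfsfm13 and, for Tnfsf13, also Tnfsf13os. Tnfsfm13 was counted separately at a mean of 0.136 to 0.482 CPM per group, so reads in the shared exons may have been left out as ambiguous and their counts are uncertain.

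The RefSeq promoter table held 28 promoters of 24 members, from 250 bases before to 50 bases after the start, on build GRCm38.p6. Those of Tnfrsf13b, Tnfrsf1a, Tnfrsf1b and Tnfsf10 are printed because these 4 members, with Tnfrsf26, had an unadjusted p under 0.05 and lower values in Lepr- HSCs than in Lepr- MPPs in 5 of 5 replicate numbers. Each is given 5′ to 3′ in the direction of its gene, with capitals for matches on either strand to the kB motif GGGNNNNNCC, the interferon response core (GAAA, any 2 bases and GAAA again), the PU.1 core GAGGAA or the RUNX core TGTGGT.
Tnfrsf13b, chr11:61126505-61126804, plus strand: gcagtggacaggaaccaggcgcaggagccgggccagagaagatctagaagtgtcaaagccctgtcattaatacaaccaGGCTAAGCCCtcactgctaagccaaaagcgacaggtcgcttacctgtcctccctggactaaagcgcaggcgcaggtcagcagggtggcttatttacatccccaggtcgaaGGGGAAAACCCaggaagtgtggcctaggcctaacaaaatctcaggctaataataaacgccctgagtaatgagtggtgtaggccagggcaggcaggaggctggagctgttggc
Tnfrsf1a, chr6:125349473-125349772, plus strand: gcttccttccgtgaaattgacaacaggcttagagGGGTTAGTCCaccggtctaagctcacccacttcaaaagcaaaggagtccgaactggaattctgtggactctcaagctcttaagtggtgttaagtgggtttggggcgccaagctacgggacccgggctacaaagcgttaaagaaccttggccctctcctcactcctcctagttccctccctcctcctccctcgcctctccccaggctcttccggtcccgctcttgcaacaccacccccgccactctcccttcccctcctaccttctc
Tnfrsf1b, chr4:145246821-145247120, minus strand: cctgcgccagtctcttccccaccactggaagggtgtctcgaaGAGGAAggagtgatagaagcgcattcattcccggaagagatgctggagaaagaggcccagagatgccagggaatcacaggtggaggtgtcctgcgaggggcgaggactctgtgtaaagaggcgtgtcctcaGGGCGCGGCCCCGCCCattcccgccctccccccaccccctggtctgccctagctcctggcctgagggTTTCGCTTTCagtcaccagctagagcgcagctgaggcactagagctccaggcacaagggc
Tnfsf10, chr3:27316827-27317126, plus strand: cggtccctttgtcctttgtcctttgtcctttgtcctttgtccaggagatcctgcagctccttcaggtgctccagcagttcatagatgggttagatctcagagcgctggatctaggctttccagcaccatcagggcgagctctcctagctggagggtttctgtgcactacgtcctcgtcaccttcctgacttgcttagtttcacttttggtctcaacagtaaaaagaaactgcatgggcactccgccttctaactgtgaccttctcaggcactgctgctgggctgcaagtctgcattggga
Tnfrsf13b and Tnfrsf1b each had 3 kB matches, which overlap in part, Tnfrsf1a had 1 and Tnfsf10 had 0. Tnfrsf1b also had 1 interferon response core and 1 PU.1 core. The kB motif was found in 15 of the 28 promoters of members (53.6%) and in 50.8% of 32851 promoters, and the interferon response core in 4 of 28 (14.3%) and in 3.4%. The PU.1 core was found in 32.1% and the RUNX core in 21.4% of the members' promoters, beside 28.3% and 16.8% of all promoters.

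Superfamily genes with other names were read alongside. Of 8 further receptors 6 were tested, and Cd27, a costimulatory receptor of lymphocytes that is also found on blood progenitors, was lower in HSCs on both sides of the sort. It averaged 58.6 ± 18.2 CPM in Lepr- HSCs and 176 ± 37.6 CPM in Lepr- MPPs, a log2 fold change of -1.59 ± 0.21 (SE, n = 5 each; edgeR adjusted p = 0.000176). In the leptin receptor-positive fractions it averaged 88.1 ± 14.8 CPM in HSCs and 177 ± 21.2 CPM in MPPs, a log2 fold change of -1.005 ± 0.21 (SE, n = 5 each; edgeR adjusted p = 0.027). Of 7 further ligands 3 were tested. Ltb, a subunit of membrane lymphotoxin, averaged 232 ± 116 CPM in Lepr+ HSCs and 78.0 ± 23.5 CPM in Lepr- HSCs (SD, n = 5 each). The log2 fold change was 1.57 ± 0.28 (SE; edgeR adjusted p = 0.0266, and 0.00312 with the block). Without the block, 0 genes of any kind passed there when replicate 2, 3, 4 or 5 of all groups was left out. The same held with only the HSC groups fitted. Ltb averaged 268 ± 65.05 CPM in Lepr+ MPPs and 186 ± 26.4 CPM in Lepr- MPPs (SD, n = 5 each). It was lower in Lepr- HSCs than in Lepr- MPPs, with a log2 fold change of -1.25 ± 0.28 (SE; edgeR adjusted p = 0.0141). Tnf itself averaged 0.633 and 0.49 CPM in Lepr+ and Lepr- HSCs and 0.0571 and 0.397 CPM in Lepr+ and Lepr- MPPs.

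Downstream of the receptors, the adaptor and death machinery list had 0 of 26 genes past the threshold in any of the 5 comparisons, with or without the block. An unadjusted p under 0.05 was found for 2, 0, 3, 0 and 0 genes, and for 6.96%, 4.41%, 12.3%, 7.89% and 3.2% of all genes. Casp8, the initiator caspase of the death receptors, averaged 133 ± 19.9 CPM in Lepr- HSCs and 179 ± 6.48 CPM in Lepr- MPPs (SD, n = 5 each; edgeR adjusted p = 0.238). Of the NF-kB list 28 of 32 genes were tested. In Lepr- HSCs against Lepr- MPPs 3 were lower and 1 was higher, where 2.73% of all genes passed and 1.51% passed lower. With the block Nfkbie was a further lower one (edgeR adjusted p = 0.0338), where 7.5% of all genes passed and 3.43% passed lower. The list's median log2 fold change there was -0.40, against 0.006 for all genes. Irf1, an interferon regulatory factor that NF-kB induces, had a log2 fold change of -0.93 ± 0.18, Tnfaip8, an apoptosis regulator induced by TNF, of -0.98 ± 0.21, and Rel, an NF-kB subunit, of -2.59 ± 0.65 (SE, n = 5 each), with edgeR adjusted p of 0.00477, 0.0119 and 0.0344. Bcl2l1, which encodes the anti-apoptotic Bcl-xL, was higher, with 1.11 ± 0.26 (SE; edgeR adjusted p = 0.0186). Bcl2l1 was also the gene of the list that passed between Lepr+ HSCs and Lepr+ MPPs, with 1.38 ± 0.26 (SE; edgeR adjusted p = 0.0173), joined with the block by Tnfaip2 (adjusted p = 0.0268). Of all genes, 0.466% passed in that comparison, and 1.77% with the block. Between Lepr+ and Lepr- HSCs 0 of the 28 genes passed. An unadjusted p under 0.05, which 6.96% of all genes had, was found for 6 of them. Among these, Tnfaip8 averaged 243 ± 38.9 CPM in Lepr+ HSCs and 145 ± 30.1 CPM in Lepr- HSCs (SD, n = 5 each; edgeR adjusted p = 0.232, and 0.0261 with the block). Between Lepr+ and Lepr- MPPs, 0 of 28 passed and 2 had an unadjusted p under 0.05, among them Vcam1, which also stands in the stromal list. Of all genes, 4.41% had such a p.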

How the data were processed

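Bulk RNA-seq of 20 libraries was read from deposited tables of whole-number read counts per gene, with no normalization. Per the submitters' processing notes, the tools named are cutadapt 2.1, FastQC 0.11.8, HTSeq 0.11.2, STAR 2.7.1a and DESeq2, with build GRCm38. The annotation release and counting options were not given in the labels. Per the labels, libraries were non-stranded (SMART-Seq v4 cDNA, Nextera XT). Pairs marked ambiguous were not given to a gene, which can lower genes that overlap. Counts in genes ran between 9532993 and 31589794 per library, with 21.43 to 38.66% of pairs given to no gene and 5.58 to 6.73% ambiguous; these rows were left out. Of 55573 gene IDs, 55480 matched GENCODE M21, which gave symbols and exon lengths.

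Genes were filtered with filterByExpr (minimum count 10, total 15), which left 16509, and tested with edgeR 4.0.16 in R 4.3.3 (TMM, robust quasi-likelihood, group as the only term, all 20 libraries in the fit), with Benjamini-Hochberg adjustment over all tested genes and a threshold of 0.05. SE is the log2 fold change over the root of F. CPM uses TMM-scaled library sizes. The replicate number stands for a shared date in the deposited data and, per the design text, for 2 mice per replicate. Deviations from the group means correlated between same-numbered libraries with a median of 0.264 over 30 pairs (-0.065 to 0.562), against -0.086 over 120 pairs of different numbers. Each test was therefore also fitted with the number as a block, and that fit is given for most of the comparisons named. Not every pair exceeded 0.1, and the number marks a shared date. Floors are 3 counts over a group and cover counting error only, as do ratios against them. The 95% intervals of log2 fold changes come from the edgeR fit and its spread between libraries.

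The members and gene lists were chosen with earlier results of these data known. Values of every library are given for members past the threshold with or without the block, for the 10 with the highest mean CPM and for the 3 with the smallest p in each comparison; other members are given by range and counts. Of the other lists up to 4 genes with the smallest p per comparison were eligible to be named. Kit, the genes that overlap members and single marker genes were added after their values were seen. Alternatives were DESeq2 1.42.0, limma 3.58.1, other filters and scaling, leaving out libraries, and months. The fit was tested on simulated data.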

Additional observations from a re-analysis of the deposited data

Results flagged for a closer look

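In 13 of the 58 groups of 5 libraries examined for the 15 members whose values are given for each library, the highest library lay far from the others by Dixon's criterion (gap over range above 0.71). The criterion assumes normally distributed values and was applied to CPM, also of members near 0. The count of 13 can therefore not be set against a chance rate. Replicate 4 libraries gave 6 of these. Tnfrsf26 had 119.2 CPM in Lepr+ MPP replicate 4, with the next library at 60.9 CPM. Tnfsf14 had 52.5 CPM in Lepr- HSC replicate 4, next to 15.1 CPM, and 31.3 CPM in Lepr+ MPP replicate 4, next to 14.1 CPM. Tnfsf10 had 60.8 CPM in Lepr- MPP replicate 4, next to 47.0 CPM. Tnfsf4 had 11.4 CPM in Lepr- MPP replicate 4, next to 3.56 CPM. Tnfrsf19 had 0.0857 CPM, a single count, in Lepr- HSC replicate 4, next to 0, and 2.83 CPM in Lepr+ HSC replicate 2, next to 0.0290 CPM.

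In Lepr+ MPP replicate 5, Tnfrsf18 had 49.0 CPM, next to 31.5 CPM, and Tnfsf9 had 16.3 CPM, next to 8.22 CPM. Tnfsf8 had 6.18 CPM in Lepr- HSC replicate 5, next to 0.0338 CPM, and 3.29 CPM in Lepr+ MPP replicate 3, next to 0.163 CPM. Tnfsf13b had 0.743 CPM in Lepr- HSC replicate 1, next to 0.0737 CPM, and 0.280 CPM in Lepr+ MPP replicate 3, next to 0.0750 CPM.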

How the results depend on the processing

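Of 971 alternative values of 25 log2 fold changes, 940 kept their direction and their side of the threshold, 23 newly passed it, 5 no longer did and 3 turned in sign. Only Tnfrsf26 in Lepr- HSCs against Lepr- MPPs passed in the fit given, so for the others keeping their side means not passing. Many alternatives leave out a single library, at times one outside the comparison. The count of members called between Lepr- HSCs and Lepr- MPPs, 1 in the fit given, was 3 with the replicate block, 2 with DESeq2, 3 with those groups alone and 3 without the 3 libraries least like their group, where the share of all genes called, 2.73% in the fit given, was 7.5%, 5.11%, 3.68% and 4.28%. It was 0 in the libraries dated June (0.457% of all genes), 0 in those dated July (0%), and between 0 and 3 when replicates were left out singly: 0 without replicate 2, 3 or 5 (0.954%, 0.952% and 2.17% of all genes) and 3 without Lepr+ MPP replicate 4 (3.24%). With the block it was 5 without the 3 libraries (11%) and 3, 2, 1, 3 and 4 without replicate 1, 2, 3, 4 and 5 (3.92%, 4.21%, 3.39%, 6.47% and 5.47%). The adjusted p of Tnfrsf26 there ran between 9.2e-05 and 0.855, past 0.05 in 35 of 40 alternatives. DESeq2 called 1 member between Lepr+ and Lepr- MPPs, Tnfrsf19. With the block and without replicate 5, 1 member, Tnfrsf26, passed between Lepr+ HSCs and Lepr+ MPPs (adjusted p 0.0245). The log2 fold change of Tnfrsf19 between Lepr+ and Lepr- HSCs was between -0.17, without Lepr+ HSC replicate 2, and 7.06 when replicates were left out singly, and the difference of Lepr effects of Tnfsf8 was 0.077 with limma voom and 0.40 with the block without replicate 5. The cause was not tested. Members left with too few counts in a reduced fit gave no value there, and the difference of effects has no fit on its groups alone apart from all 4. Replicates 4 and 5 were shallower and had counts for fewer members, and the part of depth in that was not tested.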
